A study of Homo sapiens with 37 samples.

Results

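Irradiated IMR-90 fibroblasts were set directly against IMR-90 fibroblasts of late passage, so that cells of 1 strain, irradiated or replicatively exhausted, could be compared with each other and not through a shared control. The comparison held 4 of the 37 libraries of the series, chosen by their titles: 2 of irradiated cells and 2 of late-passage cells. IMR-90 is a strain of diploid fibroblasts from human fetal lung. The irradiated cells had received 10 Gy of ionising radiation at population doubling level (PDL) 15, and the late-passage cells had been grown without treatment to PDL 52, described in the labels as replicative exhaustion. Population doubling level counts how often a culture has doubled since it was set up. The time between irradiation and harvest was not given, and since the groups differ in both the radiation and the number of doublings, these cannot be told apart. Levels in 2 libraries of untreated, proliferating IMR-90 at PDL 15 (early passage) are shown beside the results and entered no test given here, other than an alternative fit of 6 libraries. WI-38, another fetal lung strain, gave the same pair of states for comparison, with 2 libraries irradiated with 10 Gy at PDL 25 and 2 of late passage at PDL 53 to 55. All cells grew in DMEM with 10% serum.

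Cellular senescence is a lasting stop of division in which cells stay alive and metabolically active. In replicative senescence it follows the shortening of telomeres over many divisions, and in irradiated cells it follows breaks in DNA. Both routes are known to engage p53, which induces the cyclin-dependent kinase inhibitor p21 (CDKN1A), and p16 (CDKN2A), which holds the retinoblastoma protein active. Senescent fibroblasts are also known for changes in secreted proteins, in the extracellular matrix and in the lysosome. Whether the cells had stopped dividing was not measured in the files.

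The 4 IMR-90 libraries held 153904822 to 202974994 counts. Values are in CPM, counts scaled to the size of each library and then by TMM, which sets libraries on a common scale, and a gene was called when its edgeR quasi-likelihood test gave a Benjamini-Hochberg adjusted p below 0.05 over all genes tested. A log2 fold change is irradiated minus late passage, with its standard error (SE). Nothing in the labels says that the 2 libraries of a group came from separate cultures, so p-values measure the spread between these libraries, which may be technical. Over genes whose log2 CPM averaged 3 or more, the median absolute difference between replicates was 0.0463 on the log2 scale in irradiated and 0.0748 in late-passage cells. Late replicate 2 lay below late replicate 1 in 23 of 23 ribosomal protein genes, 14 of 14 histone genes, 26 of 29 replication genes, 25 of 28 p53 targets and 23 of 28 mitosis genes. How often it did so over all genes tested was not counted. In some other lists late replicate 2 was mostly the higher library, lying below in only 2 of 16 complement, 3 of 13 mitochondrially encoded and 6 of 25 collagen genes. Further lists were mixed, such as matrix glycoproteins and proteoglycans (14 of 29) and the insulin-like growth factor list (8 of 14). Counts with 1 library left out are therefore given for most gene lists, always in the order without irradiated replicate 1, without irradiated replicate 2, without late replicate 1 and without late replicate 2. Each such fit leaves 1 library in a group, so its spread comes from the other pair alone and its p-values are less certain. Early-passage libraries, although labelled as proliferating, held 19.4 and 17 CPM of the proliferation marker MKI67, no more than the 29.6 and 26.6 CPM of irradiated cells. Protein-coding genes took 56.9% to 57.9% of the counts in irradiated and 61.1% to 62.5% in late-passage cells, and the part of this difference in the results was not tested.

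Of 27689 genes tested, 1377 (4.97%) were called higher in irradiated and 1560 (5.63%) higher in late-passage cells, together 10.6%. These shares are to be set beside every count of called genes in a list. Most of these differences were small, with a median absolute log2 fold change of 0.512 among the genes higher in irradiated cells and 0.373 among those higher in late passage. Of 9930 genes whose log2 CPM averaged 3 or more, 96.2% had a log2 fold change between -0.5 and 0.5. A difference of at least 2-fold was called for 282 genes (1.02%) higher in irradiated and 165 (0.596%) higher in late-passage cells, of which 171 and 92 had an average log2 CPM below 0. Among these 9930 genes, 23 were at least 2-fold higher in irradiated cells, 15 of them protein-coding, and 19, all protein-coding, in late passage. The median log2 fold change of all genes tested was -0.00022. Leaving out 1 library lowered the number of calls to 453 and 517 without irradiated replicate 2, and to 591 and 587 without irradiated replicate 1. Without late replicate 1 the calls numbered 2737 and 2949, and without late replicate 2 they numbered 2263 and 2525.

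**Figure D1:**
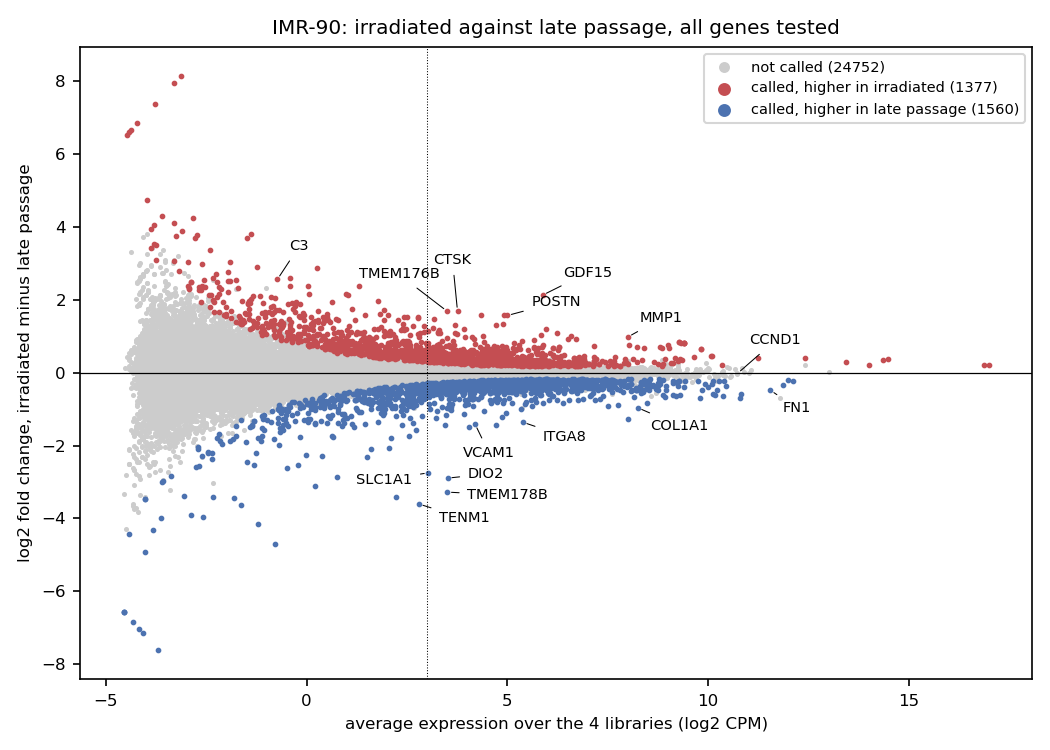
Average expression of each gene over the 4 IMR-90 libraries (x axis, log2 CPM) against its log2 fold change, irradiated minus late passage (y axis); red and blue points are called genes, grey points are not, and the dotted line marks a log2 CPM of 3. The 1377 red and 1560 blue points lie close to 0 for abundant genes. Most of the named genes stand apart from that band, while CCND1 lies in it and FN1 near its edge.

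The 4 genes given as markers of the comparison were all higher in irradiated cells. POSTN, which encodes the matrix protein periostin, stood at 48.4 and 47.3 CPM in the irradiated libraries and at 16.1 and 16.2 CPM in the late-passage libraries. The groups did not overlap, and POSTN was 2.96-fold higher in irradiated cells (log2 fold change 1.57, SE 0.0545, adjusted p = 1.48e-06). In early-passage cells it stood far above both, at 184 and 195 CPM. APOE, the lipid carrier apolipoprotein E, was found at 44.1 and 46.9 CPM after irradiation and at 14.9 and 15.8 CPM in late passage. Its groups were apart too, by 2.97-fold (log2 fold change 1.57, SE 0.0611, adjusted p = 2.83e-06), and its early-passage level was the highest, at 142 and 159 CPM. CTSK, the collagen-cleaving protease cathepsin K, measured 19.8 and 21.4 CPM in irradiated and 6.98 and 5.85 CPM in late-passage cells. The difference was 3.21-fold (log2 fold change 1.68, SE 0.0914, adjusted p = 2.14e-05), and the early-passage libraries held 49.1 and 55.3 CPM. For these 3 genes, then, the irradiated level lay between a low late-passage level and a high early-passage level.

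GDF15 had another order of levels. This secreted member of the TGF-beta family, a target of p53 and of stress signalling, reached 91.7 and 100.2 CPM in irradiated cells. In late passage it stood at 29.6 and 14.2 CPM and in early passage at 31.7 and 30.4 CPM, so that only the irradiated libraries were raised. The difference from late passage was 4.37-fold (log2 fold change 2.13, SE 0.251, adjusted p = 0.00102). The late-passage libraries differed from each other, and the log2 fold change was 2.76 without late replicate 1 and 1.69 without late replicate 2, and it was called in both.

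Besides these, 6 protein-coding genes made up the 10 with the highest fold changes at that level of expression. TMEM176B, a membrane protein of the MS4A-like family, measured 17 and 17.4 CPM in irradiated against 4.58 and 6.13 CPM in late-passage cells (log2 fold change 1.69, SE 0.117, adjusted p = 6.27e-05). RARRES2, which encodes the chemoattractant and adipokine chemerin, measured 30.4 and 30.9 CPM against 9.07 and 11.3 CPM (log2 fold change 1.59, SE 0.0937, adjusted p = 2.91e-05). Both repeated the order of POSTN, with early-passage levels of 78.2 and 79.3 CPM and 68.2 and 79.4 CPM above the irradiated ones. CCN3, a matricellular protein, was lower in abundance, with 12.7 and 12.2 CPM against 5.1 and 5.47 CPM (log2 fold change 1.24, SE 0.0798, adjusted p = 3.97e-05) and 24.8 and 25.2 CPM in early passage.

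DSG2, a desmosomal cadherin, stood at 13.1 and 13.3 CPM in irradiated and 4.9 and 4.64 CPM in late-passage cells (log2 fold change 1.47, SE 0.0777, adjusted p = 1.99e-05). Here the early-passage level of 9.8 and 11.3 CPM was close to the irradiated one, and late passage was the low group. For SLC16A6, a monocarboxylate transporter, the irradiated libraries held 43.6 and 41.3 CPM and the late-passage libraries 14.3 and 19.5 CPM (log2 fold change 1.33, SE 0.116, adjusted p = 2.34e-04). HAS2, a synthase of hyaluronan, the long sugar chain of the loose matrix, measured 37 and 38.4 CPM against 17.7 and 12.6 CPM (log2 fold change 1.31, SE 0.124, adjusted p = 3.32e-04). Both were lowest in early passage, at 12.8 and 11.8 CPM and 11.6 and 10.8 CPM. MME, which encodes the peptidase neprilysin, was among the most abundant genes with a 2-fold difference, at 87 and 86.3 CPM against 27 and 48.8 CPM (log2 fold change 1.20, SE 0.201, adjusted p = 0.00586). Its late-passage libraries were uneven, but both lay below the irradiated ones.

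Among genes whose log2 CPM averaged 3 or more, those higher in late passage reached larger fold changes. TMEM178B, a membrane protein of unknown role, measured 17.8 and 23.5 CPM in late-passage and 2.41 and 1.83 CPM in irradiated cells. That is 9.69-fold higher in late passage (log2 fold change -3.28, SE 0.155, adjusted p = 1.40e-05), from 0.0122 and 0.0196 CPM in early-passage cells, where it was nearly absent. DIO2, the deiodinase that turns thyroxine into active thyroid hormone, stood at 17.2 and 23.3 CPM against 2.41 and 3.06 CPM in irradiated cells. It was 7.43-fold higher in late passage (log2 fold change -2.89, SE 0.155, adjusted p = 2.04e-05) and 1.39 and 1.41 CPM in early passage. SLC1A1, a transporter of glutamate and cysteine, measured 11.7 and 16.9 CPM against 2.24 and 2.0 CPM, 6.72-fold higher in late passage (log2 fold change -2.75, SE 0.164, adjusted p = 2.91e-05). SLC1A1 stood at 0.743 and 0.639 CPM in early passage. In all 3 genes the irradiated libraries lay between the early-passage level and the much higher late-passage level.

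Below an average log2 CPM of 3, 4 genes with large folds, named after their values were seen, lay on both sides. TENM1, a transmembrane teneurin, measured 11.7 and 14.2 CPM in late-passage and 1.12 and 0.999 CPM in irradiated cells (log2 fold change -3.61, SE 0.127, adjusted p = 1.48e-06). GDF6, a bone morphogenetic protein, measured 8.68 and 8.43 CPM and 0.842 and 0.752 CPM (log2 fold change -3.42, SE 0.116, adjusted p = 1.48e-06). Late passage was 12.2-fold higher for TENM1 and 10.7-fold higher for GDF6, and in neither gene did the groups overlap. BCHE, a cholinesterase, measured 0.629 and 0.623 CPM in irradiated and 0.0567 and 0.0382 CPM in late-passage cells (log2 fold change 3.69, SE 0.395, adjusted p = 6.53e-04), and was 12.9-fold higher in irradiated cells. DOK5, a docking protein of receptor kinases, measured 0.738 and 0.60 CPM and 0.068 and 0.0255 CPM (log2 fold change 3.79, SE 0.447, adjusted p = 0.00102), 13.9-fold higher in irradiated cells, with a log2 fold change of 4.68 without late replicate 1. Both had late-passage levels near 0, and their groups did not overlap.

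Several surface and secreted proteins followed. SFRP1, a secreted inhibitor of WNT ligands, was abundant, at 389 and 339.5 CPM in late-passage against 148 and 151 CPM in irradiated cells (log2 fold change -1.28, SE 0.0671, adjusted p = 1.99e-05). Both groups held far more of it than early-passage cells, which had 14.5 and 12.5 CPM. SLC14A1, a urea transporter, likewise stood at 33.4 and 42.8 CPM against 13.7 and 14.5 CPM (log2 fold change -1.43, SE 0.103, adjusted p = 7.42e-05), and at 0.28 and 0.32 CPM in early passage. CORIN, a serine protease that activates natriuretic peptides, measured 15 and 17 CPM against 5.9 and 5.84 CPM (log2 fold change -1.45, SE 0.0823, adjusted p = 2.41e-05), with irradiated cells below the early-passage level of 8.85 and 8.13 CPM. MASP1, a protease of the lectin pathway of complement, measured 22.3 and 26.3 CPM against 7.98 and 9.44 CPM (log2 fold change -1.48, SE 0.0999, adjusted p = 4.99e-05), and its early-passage level was 29.5 and 31.4 CPM. SCUBE3, a secreted glycoprotein, measured 13.4 and 12.8 CPM against 5.71 and 5.38 CPM (log2 fold change -1.24, SE 0.0776, adjusted p = 3.55e-05). In these 5 genes every late-passage library lay above both irradiated libraries.

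VCAM1 and ITGA8 were called with uneven late-passage libraries. VCAM1, an adhesion molecule for leukocytes, measured 16.9 and 36.5 CPM in late-passage and 10.2 and 9.86 CPM in irradiated cells (log2 fold change -1.41, SE 0.268, adjusted p = 0.0102), after 139 and 154 CPM in early passage. Without late replicate 2 its log2 fold change was -0.75, and without late replicate 1 it was -1.86. ITGA8, an integrin subunit of mesenchymal cells, measured 37.3 and 83.6 CPM against 22.9 and 24.1 CPM (log2 fold change -1.36, SE 0.276, adjusted p = 0.0135). It was not called by DESeq2 (adjusted p = 0.0789), and its log2 fold change was -0.67 without late replicate 2 and -1.83 without late replicate 1. In both genes late replicate 2 was the high library.

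Among the most abundant genes with a 2-fold difference were MEST, DSP and ITGBL1. The imprinted gene MEST measured 41.5 and 44.1 CPM in late-passage and 19.8 and 20.1 CPM in irradiated cells (log2 fold change -1.10, SE 0.0574, adjusted p = 1.99e-05). DSP, which encodes the desmosomal plaque protein desmoplakin, measured 57.7 and 50.4 CPM and 27.7 and 26 CPM (log2 fold change -1.01, SE 0.0717, adjusted p = 7.19e-05), opposite in direction to the desmosomal cadherin DSG2. ITGBL1, an integrin-beta-like protein, measured 42.4 and 39.8 CPM and 17.5 and 17.9 CPM (log2 fold change -1.21, SE 0.0584, adjusted p = 1.40e-05), and its count is uncertain because most of its exon sequence is shared with other annotated genes.

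**Figure D2:**
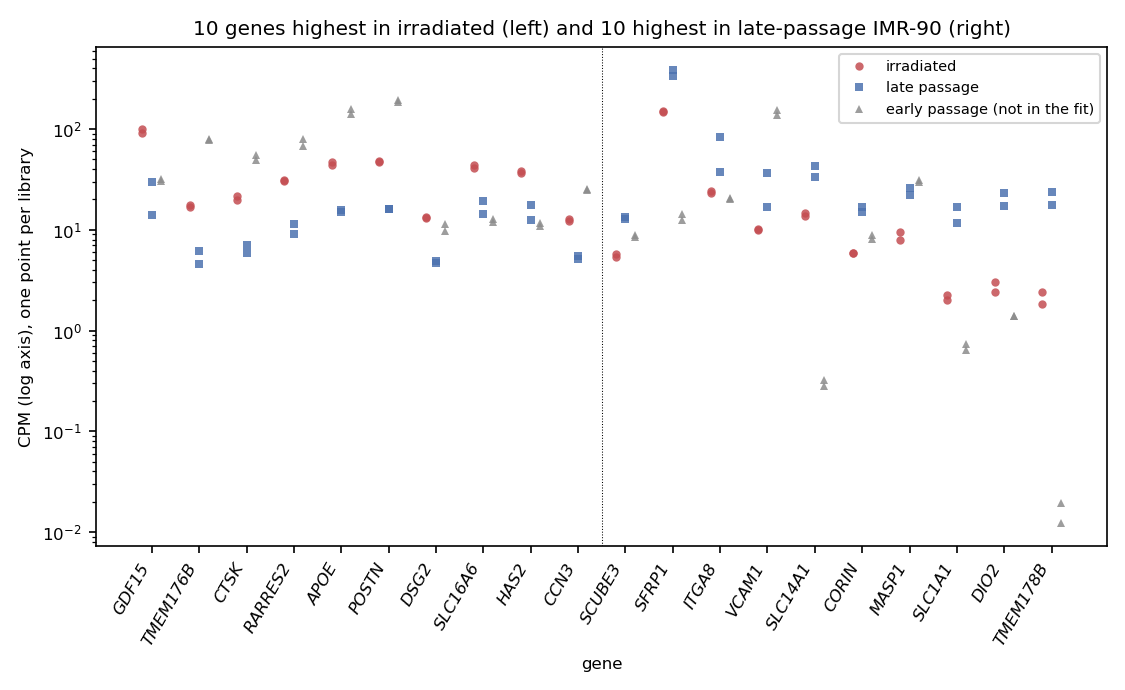
CPM on a log axis (y) in every IMR-90 library for the 10 protein-coding genes highest in irradiated cells (left of the dotted line) and the 10 highest in late passage (right); circles are irradiated, squares late-passage and triangles early-passage libraries, the last outside the fit. In none of the 20 genes do circles and squares overlap, and the early-passage points lie above, between or below them depending on the gene.

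Regulators of the cell cycle separated the groups in opposite directions. CDKN2A, the gene of p16, measured 12.7 and 11.8 CPM in irradiated and 18.5 and 27.5 CPM in late-passage cells, against 4.04 and 4.08 CPM in early passage. It was 1.87-fold higher in late passage (log2 fold change -0.91, SE 0.147, adjusted p = 0.00496). Its exons overlap those of an antisense gene, and whether counting used strand was not given. Without late replicate 2 its log2 fold change was -0.60. CDKN2B, the neighbouring inhibitor p15, measured 8.75 and 9.4 CPM against 13.1 and 14 CPM and was also higher in late passage (log2 fold change -0.58, SE 0.0754, adjusted p = 0.00171). CDKN1A, the gene of p21, was abundant in all libraries, with 663 and 662 CPM in irradiated and 576 and 429 CPM in late-passage cells and 199 and 189 CPM in early passage. It was called 1.32-fold higher in irradiated cells (log2 fold change 0.40, SE 0.109, adjusted p = 0.0466), a call that was lost without either irradiated library (adjusted p = 0.127 and 0.152) and in DESeq2 (adjusted p = 0.226). Its log2 fold change was 0.63 without late replicate 1 and 0.20 without late replicate 2. CDKN2C (p18) was called higher in irradiated cells as well (log2 fold change 0.58, SE 0.14, adjusted p = 0.0285), with the call lost without irradiated replicate 1 (adjusted p = 0.139) or 2 (adjusted p = 0.0525) and a log2 fold change of 0.37 without late replicate 2.

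Of 28 p53 targets, 6 were called higher in irradiated and 2 higher in late-passage cells, against 4.97% and 5.63% of all genes, with a median log2 fold change of 0.17 against -0.00022 over all genes. Beside CDKN1A and GDF15, the genes higher in irradiated cells were MDM2, AEN, PLK2 and GADD45A (log2 fold change 0.24, SE 0.0658, adjusted p = 0.0482), which links DNA damage to growth arrest. MDM2, the ubiquitin ligase that limits p53, measured 321 and 314 CPM in irradiated and 267 and 226 CPM in late-passage cells (log2 fold change 0.36, SE 0.0731, adjusted p = 0.0129). AEN, an exonuclease of apoptosis, measured 89.1 and 91.7 CPM and 73 and 65.5 CPM (log2 fold change 0.38, SE 0.0602, adjusted p = 0.00423), and PLK2, a stress-responsive kinase, 128 and 130.2 CPM and 100.3 and 108 CPM (log2 fold change 0.31, SE 0.0545, adjusted p = 0.0075). The 2 higher in late passage were PTCHD4 (log2 fold change -0.40, SE 0.103, adjusted p = 0.0367), a membrane protein, and the long non-coding RNA gene PURPL (log2 fold change -0.57, SE 0.107, adjusted p = 0.00943). The p53 target calls higher in irradiated and in late-passage cells numbered 2 and 0, 2 and 1, 22 and 2, and 7 and 4 with 1 library left out. Leaving out irradiated replicate 1 or 2, in that order, gave adjusted p-values of 0.0791 and 0.0668 for MDM2, 0.0626 and 0.0996 for PLK2, 0.156 and 0.344 for GADD45A and 0.121 and 0.179 for PTCHD4. PURPL lost its call without irradiated replicate 1 (adjusted p = 0.088) and PTCHD4 also without late replicate 1 (adjusted p = 0.0746), and GADD45A had a log2 fold change of 0.15 without late replicate 2.

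G1 cyclins, their kinases and the retinoblastoma family had a median of 0.04. Of these 16 genes, 5 were called higher in irradiated and 2 higher in late-passage cells, against 4.97% and 5.63% of all genes. Their calls higher in irradiated and in late-passage cells numbered 3 and 1, 1 and 1, 6 and 2, and 5 and 3 with 1 library left out. CDK6 measured 250.3 and 242 CPM in irradiated and 310.0 and 376 CPM in late passage (log2 fold change -0.48, SE 0.0808, adjusted p = 0.00593), and CCND2, cyclin D2, 299.7 and 303 CPM and 361 and 393 CPM (log2 fold change -0.32, SE 0.0557, adjusted p = 0.00655). E2F1, which drives genes of the S phase, was in turn higher in irradiated cells at 12.2 and 13.2 CPM against 9.74 and 9.49 CPM (log2 fold change 0.40, SE 0.073, adjusted p = 0.00819), and CCNE2, cyclin E2, likewise (log2 fold change 0.50, SE 0.0836, adjusted p = 0.00587). E2F2 (log2 fold change 1.27, SE 0.239, adjusted p = 0.00967), the kinase CDK4 (log2 fold change 0.26, SE 0.0499, adjusted p = 0.00997) and the retinoblastoma relative RBL1 (log2 fold change 0.32, SE 0.0838, adjusted p = 0.0415) made up the 5. With irradiated replicate 1 or 2 left out, the adjusted p-values became 0.0779 and 0.0793 for CCND2, 0.116 and 0.137 for CDK4 and 0.32 and 0.0828 for RBL1, and without replicate 2 it was 0.112 for E2F1 and 0.0607 for E2F2. CCND1, cyclin D1, chosen after its values were seen, measured 1666 and 1698 CPM in irradiated and 1773 and 1653 CPM in late-passage cells, against 103 and 102 CPM in early passage. The first 2 groups overlapped, and the log2 fold change was -0.03 with a 95% interval of -0.14 to 0.09 (adjusted p = 0.825). KISS1, chosen in the same way, measured 23.4 and 24.9 CPM in irradiated and 21.7 and 14.7 CPM in late-passage cells but 0.0609 and 0.0653 CPM in early passage. The first 2 groups did not differ past the threshold (log2 fold change 0.40, SE 0.141, adjusted p = 0.107). The log2 fold change of KISS1 was 0.72 without late replicate 1 and 0.15 without late replicate 2.

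Genes that act in S phase and mitosis were together higher in irradiated cells. Of 28 mitosis genes, 27 were called higher in irradiated cells, where 4.97% of all genes were, and 0 were called higher in late-passage cells by edgeR (0 at an unadjusted p below 0.05 and 0 by DESeq2). Their median log2 fold change was 0.50. The 1 not called was CENPA (log2 fold change 0.30, SE 0.0936, adjusted p = 0.0772), the histone of centromeres, named after its value was seen. CENPA had a log2 fold change of 0.24 without late replicate 1 and 0.36 without late replicate 2. In 28 of 28 genes both irradiated libraries lay above both late-passage libraries, as they did in all 1377 genes called higher in irradiated cells. The share over all genes tested was not counted, so the 28 of 28 is not read as a trait of mitosis genes. The 3 with the smallest adjusted p were CDK1, BUB1 and KIF20A, the kinase that starts mitosis, a kinase of the spindle checkpoint and a kinesin of cytokinesis. Promoters of mitotic genes are known to carry CCAAT boxes and, near the start site, the cell cycle genes homology region (CHR). The 250 bases before a RefSeq start of these 3 genes (GRCh38.p14) are shown because the genes were called together in 1 direction. CDK1 had 2 listed starts, and the window with the most matches of these motifs is shown. CDK1 lies on the plus strand (chr10:60778228-60778477), BUB1 on the minus strand (chr2:110678064-110678313) and KIF20A on the plus strand (chr5:138178862-138179111). Capitals mark CCAAT and TTTGAA on either strand, neither of which contains the other.
CDK1: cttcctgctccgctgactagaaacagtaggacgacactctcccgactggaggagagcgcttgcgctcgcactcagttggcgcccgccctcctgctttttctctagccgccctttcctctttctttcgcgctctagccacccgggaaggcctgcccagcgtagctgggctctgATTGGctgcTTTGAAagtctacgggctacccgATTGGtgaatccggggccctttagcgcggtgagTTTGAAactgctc
BUB1: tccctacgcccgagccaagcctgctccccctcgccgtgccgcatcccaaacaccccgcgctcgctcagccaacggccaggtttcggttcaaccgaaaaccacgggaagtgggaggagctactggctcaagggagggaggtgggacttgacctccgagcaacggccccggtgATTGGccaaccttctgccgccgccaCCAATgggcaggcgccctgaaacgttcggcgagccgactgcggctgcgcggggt
KIF20A: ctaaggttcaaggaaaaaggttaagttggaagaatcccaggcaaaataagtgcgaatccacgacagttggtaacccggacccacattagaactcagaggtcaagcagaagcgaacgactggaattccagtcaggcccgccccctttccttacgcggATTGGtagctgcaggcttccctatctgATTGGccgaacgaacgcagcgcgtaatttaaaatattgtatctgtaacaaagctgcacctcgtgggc
Each window held 2 CCAAT boxes, and CDK1 also 2 copies of TTTGAA, which are not in the other windows. Over the 22 mitosis genes with a window, 81.8% held CCAAT and 50% held TTTGAA, against 37% and 16.1% of 27305 genes with a window. These are matches of letters, and binding was not measured.

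CDK1 measured 28.2 and 27.6 CPM in irradiated and 17.4 and 18.5 CPM in late-passage cells (log2 fold change 0.64, SE 0.0599, adjusted p = 3.29e-04), and 17.1 and 18.1 CPM in early passage. BUB1 measured 21 and 20.7 CPM and 13.8 and 13.2 CPM (log2 fold change 0.63, SE 0.062, adjusted p = 4.60e-04), with 12.1 and 11.7 CPM in early passage, and KIF20A 37.3 and 36.7 CPM and 25.2 and 22.9 CPM (log2 fold change 0.62, SE 0.0622, adjusted p = 4.71e-04), with 33.4 and 32.8 CPM. The proliferation marker MKI67 measured 29.6 and 26.6 CPM in irradiated and 21.3 and 16.8 CPM in late-passage cells (log2 fold change 0.56, SE 0.102, adjusted p = 0.00808), and TOP2A, the topoisomerase that untangles chromosomes, 139 and 138 CPM and 102 and 98.8 CPM (log2 fold change 0.47, SE 0.0487, adjusted p = 5.84e-04). The libraries labelled as proliferating early-passage cells held 19.4 and 17 CPM of MKI67 and 139 and 133 CPM of TOP2A, no more than the irradiated ones. Mitosis calls higher in irradiated and in late-passage cells numbered 24 and 0, 22 and 0, 27 and 0, and 28 and 0 with 1 library left out.

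DNA replication genes showed the same direction, with 23 of 29 called higher in irradiated cells and a median log2 fold change of 0.42, and 0 were called higher in late-passage cells by edgeR (0 at an unadjusted p below 0.05 and 0 by DESeq2). RRM2, a subunit of the reductase that makes deoxynucleotides, measured 49 and 48.7 CPM in irradiated and 31.6 and 26.6 CPM in late-passage cells (log2 fold change 0.75, SE 0.0761, adjusted p = 5.24e-04). CDC6, which loads the replicative helicase, measured 12.2 and 12.3 CPM and 7.69 and 7.45 CPM (log2 fold change 0.69, SE 0.0719, adjusted p = 5.63e-04). The helicase subunit MCM3 (log2 fold change 0.47, SE 0.0612, adjusted p = 0.00173) and thymidylate synthase TYMS (log2 fold change 0.70, SE 0.111, adjusted p = 0.00423) were called too. Replication calls higher in irradiated and in late-passage cells numbered 12 and 0, 9 and 0, 26 and 0, and 24 and 0 with 1 library left out. The median was 0.51 without late replicate 1 and 0.34 without late replicate 2. The E2F motifs TTTGGCGC and TTTCCCGC, which contain none of the other motifs searched, were present, on either strand, in 36% of the 25 replication genes with a promoter window and in 2.36% of all genes with one. That count took listed genes called or not, and binding of E2F was not measured.

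Histone genes that are made in S phase, measured here in RNA from which only ribosomal RNA had been depleted, were called higher in irradiated cells for 10 of 14 genes, with a median of 0.37, and 0 were called higher in late-passage cells by edgeR (0 at an unadjusted p below 0.05 and 0 by DESeq2). H1-5, a linker histone, measured 64.9 and 64.4 CPM in irradiated and 48.9 and 36.1 CPM in late-passage cells (log2 fold change 0.60, SE 0.111, adjusted p = 0.00858). H2BC11, a core histone, measured 32.6 and 33.3 CPM and 24.1 and 19.2 CPM (log2 fold change 0.61, SE 0.0921, adjusted p = 0.00364). H2AC6, named after its value was seen, measured 111 and 115 CPM and 124 and 118 CPM, and did not pass the test (log2 fold change -0.10, SE 0.0518, adjusted p = 0.285). Its log2 fold change was -0.06 without late replicate 1 and -0.13 without late replicate 2. Copies of histone genes are alike, so reads may be split among them. Histone calls higher in irradiated and in late-passage cells numbered 5 and 0, 3 and 0, 13 and 0, and 10 and 1 with 1 library left out.

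Of 17 genes of the nuclear lamina and the high-mobility-group proteins, 7 were called higher in irradiated cells, with a median of 0.17, and 0 were called higher in late-passage cells by edgeR (0 at an unadjusted p below 0.05 and 0 by DESeq2). LMNB1, lamin B1, whose loss is a known mark of senescence, measured 24 and 23.7 CPM in irradiated, 19.9 and 14.7 CPM in late-passage and 23.1 and 25.1 CPM in early-passage cells (log2 fold change 0.46, SE 0.114, adjusted p = 0.0316). HMGB2, which bends DNA and is known to be lost in senescence, measured 33.8 and 34.6 CPM, 26.4 and 19.9 CPM and 29.1 and 33.1 CPM in the same order (log2 fold change 0.56, SE 0.107, adjusted p = 0.0105). In both genes the irradiated libraries resembled the early-passage ones in level and the late-passage libraries were lower. The call of LMNB1 was lost without irradiated replicate 1 (adjusted p = 0.090) or 2 (adjusted p = 0.0976). The list's calls higher in irradiated and in late-passage cells numbered 1 and 0, 2 and 0, 8 and 0, and 8 and 0 with 1 library left out. The log2 fold change of LMNB1 was 0.70 without late replicate 1 and 0.26 without late replicate 2, where that of HMGB2 was 0.37.

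**Figure D3:**
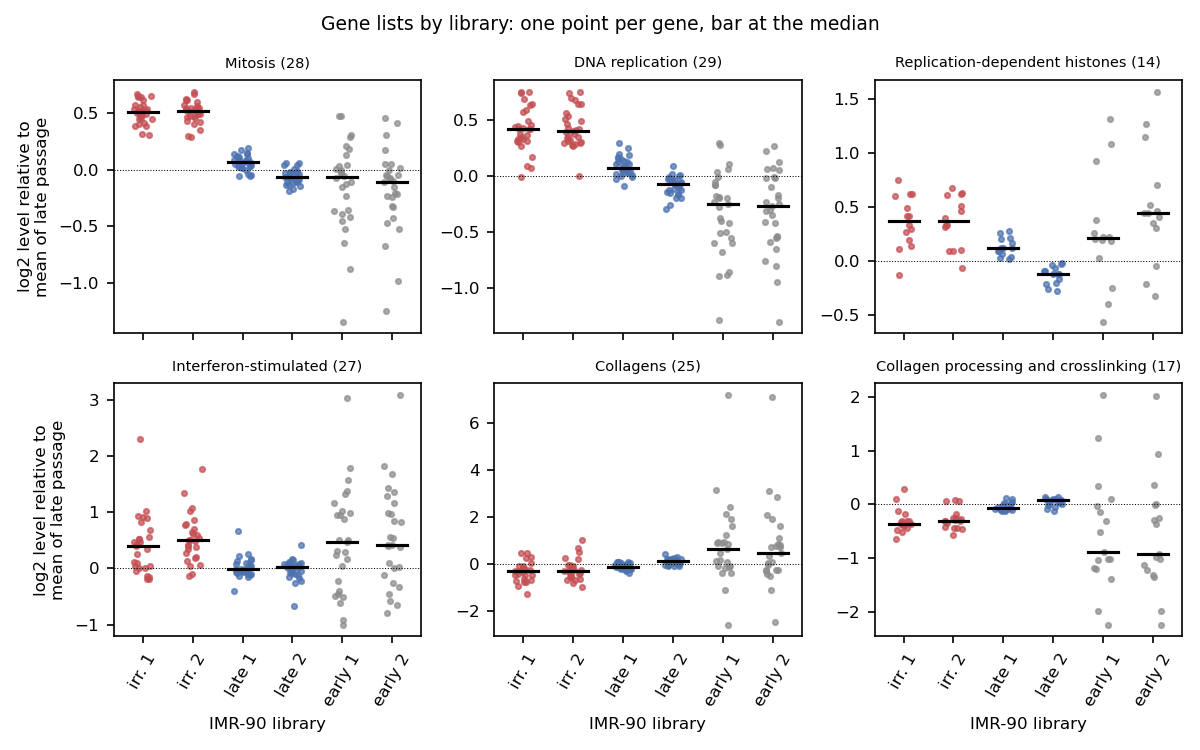
Log2 level of each gene relative to its mean in the 2 late-passage libraries (y axis), in each IMR-90 library (x axis), for 6 gene lists with the number of genes tested; points are genes and bars are medians. The irradiated medians of mitosis genes (0.505 and 0.518) lie above both late-passage medians (0.063 and -0.063), those of collagens (-0.321 and -0.318) lie below (-0.14 and 0.14), and genes scatter most in early passage.

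Interferon-stimulated genes were higher in irradiated cells for 11 of 27 members, with a median log2 fold change of 0.47, and 0 were called higher in late-passage cells by edgeR (2 at an unadjusted p below 0.05 and 0 by DESeq2). Type I interferons are known to induce these antiviral genes through the factor ISGF3, which binds a response element with 2 GAAA blocks. The 250 bases before the start of IFI6 (minus strand, chr1:27672193-27672442) and IFIT1 (plus strand, chr10:89392373-89392622; both GRCh38.p14) are shown because these genes had the smallest adjusted p of the list. Capitals mark 2 GAAA blocks parted by any 2 bases, on either strand.
IFI6: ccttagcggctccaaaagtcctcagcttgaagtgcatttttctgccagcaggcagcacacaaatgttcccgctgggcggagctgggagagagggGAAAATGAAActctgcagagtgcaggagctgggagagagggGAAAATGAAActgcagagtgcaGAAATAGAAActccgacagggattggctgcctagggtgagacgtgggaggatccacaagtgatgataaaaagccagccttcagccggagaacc
IFIT1: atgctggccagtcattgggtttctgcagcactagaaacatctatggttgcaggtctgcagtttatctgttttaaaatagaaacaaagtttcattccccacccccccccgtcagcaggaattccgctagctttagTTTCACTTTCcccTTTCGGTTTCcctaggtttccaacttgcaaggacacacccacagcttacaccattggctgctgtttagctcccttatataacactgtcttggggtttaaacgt
IFI6 held 3 matches and IFIT1 held 2. The motif was present in 73.7% of the 19 interferon-stimulated genes with a window and in 3.71% of all genes with one, and it contains none of the other motifs searched. The count took every listed gene with a window, called or not, so it says nothing of the difference between the groups. These are matches of letters, and binding of ISGF3 was not measured. IFI6, a mitochondrial inhibitor of apoptosis, measured 19.3 and 21.9 CPM in irradiated and 10.2 and 10.5 CPM in late-passage cells (log2 fold change 0.99, SE 0.0758, adjusted p = 9.72e-05), and 12.2 and 13.9 CPM in early passage. IFIT1, which binds foreign RNA, measured 14.3 and 17.9 CPM and 9.05 and 8.55 CPM (log2 fold change 0.87, SE 0.103, adjusted p = 0.00106), and 16.3 and 15.7 CPM in early passage. IFIT2 (log2 fold change 0.82, SE 0.102, adjusted p = 0.00137) and the antiviral GTPase MX1 (log2 fold change 1.19, SE 0.156, adjusted p = 0.00178) were called in the same direction. Late passage was thus the low group for IFIT1, while for IFI6 irradiated cells were the high group. Interferon list calls higher in irradiated and in late-passage cells numbered 9 and 0, 6 and 0, 11 and 2, and 13 and 0 with 1 library left out.

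Inflammatory cytokines and chemokines are known as part of the senescence-associated secretory phenotype, and 16 of 27 listed lay below 1 CPM in all 4 libraries. Of 22 tested, 2 were called higher in irradiated cells, IL11 and CXCL8, and 1 in late passage, CCL2, a share near the 10.6% of all genes, with a median of 0.43. Cytokine calls higher in irradiated and in late-passage cells numbered 2 and 1, 1 and 1, 4 and 5, and 3 and 1 with 1 library left out. IL11 measured 68 and 68.7 CPM in irradiated and 52.6 and 42.2 CPM in late-passage cells (log2 fold change 0.53, SE 0.0876, adjusted p = 0.00563). The chemokine CXCL8 measured 3.42 and 3.94 CPM and 2.26 and 1.11 CPM (log2 fold change 1.12, SE 0.259, adjusted p = 0.0242), both far below the 139 and 124 CPM of early passage, and it was not called by DESeq2 (adjusted p = 0.117) or without irradiated replicate 2 (adjusted p = 0.0905). Its log2 fold change was 1.73 without late replicate 1 and 0.70 without late replicate 2. The monocyte chemoattractant CCL2 measured 8.64 and 8.9 CPM and 14 and 17.6 CPM (log2 fold change -0.85, SE 0.102, adjusted p = 0.00115). IL6 was not called, at 1.52 and 1.05 CPM and 1.66 and 2.18 CPM (log2 fold change -0.57, SE 0.215, adjusted p = 0.132), nor was IL1B, at 0.129 and 0.229 CPM and 0.147 and 0.0382 CPM (log2 fold change 0.92, SE 0.675, adjusted p = 0.462). IL6 was called higher in late passage with no filter on low counts (adjusted p = 0.020). Its log2 fold change was -0.76 without late replicate 1 and -0.36 without late replicate 2.

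Complement genes split between the groups, with a median of -0.18. Of 16 tested, 2 were called higher in irradiated and 3 in late-passage cells, against 4.97% and 5.63% of all genes. C3, the central component, was low, at 1.03 and 0.952 CPM in irradiated and 0.17 and 0.166 CPM in late-passage cells (log2 fold change 2.56, SE 0.269, adjusted p = 5.97e-04). CLU, clusterin, measured 110.0 and 116 CPM and 146 and 187 CPM and was higher in late passage (log2 fold change -0.56, SE 0.0977, adjusted p = 0.00699), as were the terminal component C7 (log2 fold change -0.96, SE 0.134, adjusted p = 0.00234) and the regulator CD46 (log2 fold change -0.20, SE 0.048, adjusted p = 0.0261). Complement calls higher in irradiated and in late-passage cells numbered 2 and 2, 2 and 2, 2 and 10, and 5 and 4 with 1 library left out. The median of the list was -0.41 without late replicate 1 and 0.11 without late replicate 2, so its direction rests on 1 library. Without late replicate 2 the log2 fold change of CLU was -0.37. Calls lost without irradiated replicate 1 or 2 had adjusted p-values of 0.227 and 0.308 for CD46.

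Collagens, the fibres of the matrix, were mostly higher in late passage. Of 25 collagen genes tested, 14 were called higher in late-passage and 1 higher in irradiated cells, and the median log2 fold change was -0.30. COL1A1, a chain of type I collagen, measured 211 and 202 CPM in irradiated and 413 and 394 CPM in late-passage cells, and 563 and 510.3 CPM in early passage (log2 fold change -0.97, SE 0.0529, adjusted p = 2.14e-05). Its partner chain COL1A2 measured 1329.7 and 1354 CPM and 2273 and 2114 CPM (log2 fold change -0.71, SE 0.0535, adjusted p = 9.19e-05). COL11A1 (log2 fold change -0.80, SE 0.0599, adjusted p = 9.19e-05) and COL5A1 (log2 fold change -0.74, SE 0.0692, adjusted p = 3.21e-04), which nucleate and limit collagen fibrils, were called too. COL11A1 stood at 38.8 and 38.4 CPM in irradiated, 70.5 and 63.6 CPM in late-passage and 11 and 12.1 CPM in early-passage cells. The 1 collagen called higher in irradiated cells was COL7A1 of anchoring fibrils (log2 fold change 0.27, SE 0.0573, adjusted p = 0.0166), which was lost without irradiated replicate 1 (adjusted p = 0.133) or 2 (adjusted p = 0.149). Collagen calls higher in irradiated and in late-passage cells numbered 0 and 7, 0 and 9, 1 and 19, and 5 and 14 with 1 library left out. With no filter on low counts, 4 were called higher in irradiated and 16 in late-passage cells.

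Enzymes that modify and cross-link collagen went with it: 13 of 17 were called higher in late-passage cells, with a median of -0.32, and 0 were called higher in irradiated cells by edgeR (0 at an unadjusted p below 0.05 and 0 by DESeq2). LOXL4 (log2 fold change -0.60, SE 0.0657, adjusted p = 7.17e-04) and LOXL2 (log2 fold change -0.49, SE 0.0657, adjusted p = 0.00201) oxidise lysines for cross-links, PLOD1 (log2 fold change -0.31, SE 0.0535, adjusted p = 0.0068) hydroxylates lysine and P4HA1 (log2 fold change -0.46, SE 0.0774, adjusted p = 0.00579) hydroxylates proline. Enzyme calls higher in irradiated and in late-passage cells numbered 0 and 4, 0 and 6, 0 and 14, and 1 and 13 with 1 library left out. PLOD1 lost its call without replicate 1 (adjusted p = 0.13).

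Of 29 matrix glycoproteins and proteoglycans, 15 were called higher in late-passage and 3 higher in irradiated cells, with a median of -0.24. Fibronectin, FN1, measured 2556 and 2456 CPM in irradiated and 3604 and 3408 CPM in late-passage cells (log2 fold change -0.48, SE 0.0519, adjusted p = 6.59e-04). The fibrillins FBN1 (log2 fold change -0.61, SE 0.0504, adjusted p = 1.59e-04) and FBN2 (log2 fold change -0.90, SE 0.0674, adjusted p = 9.18e-05), which build microfibrils, and the small proteoglycan DCN, decorin, (log2 fold change -0.62, SE 0.0841, adjusted p = 0.00201) were called in the same direction. The 3 higher in irradiated cells were POSTN, TNC (log2 fold change 0.42, SE 0.0568, adjusted p = 0.00205) and THBS2 (log2 fold change 0.32, SE 0.0865, adjusted p = 0.043), all matricellular proteins. TNC, tenascin-C, measured 165 and 163 CPM and 117 and 128 CPM, against 758 and 643 CPM in early passage. Glycoprotein and proteoglycan calls higher in irradiated and in late-passage cells numbered 2 and 8, 2 and 11, 5 and 16, and 5 and 16 with 1 library left out. THBS2 was not called without irradiated replicate 1 (adjusted p = 0.317) or 2 (adjusted p = 0.119).

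Proteases of the matrix did not follow 1 direction. MMP1, the interstitial collagenase, measured 332 and 348 CPM in irradiated and 160.1 and 185 CPM in late-passage cells (log2 fold change 0.98, SE 0.0702, adjusted p = 7.36e-05), and MMP3, stromelysin, 66.2 and 66.6 CPM and 30.6 and 40.2 CPM (log2 fold change 0.91, SE 0.103, adjusted p = 8.49e-04). Early-passage cells held 72.6 and 86.4 CPM of MMP1, below both groups, and 29.3 and 33.5 CPM of MMP3, which overlaps the late-passage level. These were the 2 of 18 metalloproteases and inhibitors called higher in irradiated cells, and the median of the list was -0.20. The 7 called higher in late passage included the procollagen peptidase ADAMTS2 (log2 fold change -0.71, SE 0.0636, adjusted p = 2.63e-04), the sheddase ADAM19 (log2 fold change -0.75, SE 0.0871, adjusted p = 9.87e-04) and the inhibitor TIMP3 (log2 fold change -0.26, SE 0.0532, adjusted p = 0.014). Metalloprotease list calls higher in irradiated and in late-passage cells numbered 2 and 3, 2 and 3, 3 and 12, and 5 and 8 with 1 library left out. In the list made for the plasminogen system, 4 of 9 genes were called higher in irradiated cells, with a median of 0.13, and 0 were called higher in late-passage cells by edgeR (1 at an unadjusted p below 0.05 and 0 by DESeq2). SERPINB2, an inhibitor of plasminogen activators, had the largest of these differences (log2 fold change 1.06, SE 0.132, adjusted p = 0.00132). PLAUR (log2 fold change 0.21, SE 0.0528, adjusted p = 0.0356), the urokinase receptor, was called too. The urokinase PLAU had a small difference at high level, 506 and 502 CPM and 408 and 454 CPM (log2 fold change 0.22, SE 0.0598, adjusted p = 0.0423). SERPINF1 (log2 fold change 0.48, SE 0.127, adjusted p = 0.041), the other gene called, encodes a serpin that is not an inhibitor of plasminogen activators. Without irradiated replicate 1 or 2, only 1 gene of the system, SERPINB2, was called. Without late replicate 1 and without late replicate 2, 4 and 5 were called higher in irradiated and 1 and 1 in late-passage cells. Leaving out irradiated replicate 1 or 2, in that order, gave adjusted p-values of 0.197 and 0.107 for TIMP3, 0.255 and 0.261 for PLAU, 0.142 and 0.394 for PLAUR and 0.0595 and 0.302 for SERPINF1.

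Of 14 genes of the insulin-like growth factor list, 7 were called higher in late-passage and 1 higher in irradiated cells. The shares over all genes were 5.63% and 4.97%, and the list median was -0.29. Signalling itself was not measured. The binding protein IGFBP7, secreted by senescent cells, measured 1015 and 1067 CPM in irradiated, 1483 and 1781 CPM in late-passage and 171 and 193 CPM in early-passage cells (log2 fold change -0.65, SE 0.0789, adjusted p = 0.00119). IGFBP4 (log2 fold change -0.55, SE 0.0498, adjusted p = 2.87e-04) and IGFBP3 (log2 fold change -0.52, SE 0.0717, adjusted p = 0.00219) and the ligand IGF2 (log2 fold change -0.52, SE 0.0594, adjusted p = 9.11e-04) were called likewise, the count of IGF2 being uncertain since a readthrough gene covers it. STC1, which inhibits the protease that frees IGF from its carriers, was the 1 higher in irradiated cells (log2 fold change 0.49, SE 0.0892, adjusted p = 0.00854). Of 18 genes of WNT signalling, 7 were called higher in late-passage cells, with a median of -0.25, and 0 were called higher in irradiated cells by edgeR (1 at an unadjusted p below 0.05 and 0 by DESeq2). They included the ligand WNT5A (log2 fold change -0.47, SE 0.0543, adjusted p = 9.15e-04) and the receptor FZD4 (log2 fold change -0.71, SE 0.0643, adjusted p = 2.85e-04) beside SFRP1. IGF calls higher in irradiated and in late-passage cells numbered 1 and 5, 1 and 4, 2 and 9, and 2 and 7 with 1 library left out. WNT calls higher in irradiated and in late-passage cells numbered 0 and 5, 0 and 4, 0 and 7, and 2 and 7 with 1 library left out. Without late replicate 1 the WNT median was -0.08. Of 26 genes of TGF-beta and BMP signalling, the co-repressor TGIF1 (log2 fold change 0.23, SE 0.0627, adjusted p = 0.0438) was higher in irradiated cells, and the ligand TGFB2 (log2 fold change -0.55, SE 0.10, adjusted p = 0.00856), its receptor TGFBR2 (log2 fold change -0.29, SE 0.0607, adjusted p = 0.015), the latent-complex protein LTBP1 (log2 fold change -0.32, SE 0.0523, adjusted p = 0.00503) and the activin subunit INHBB (log2 fold change -1.03, SE 0.244, adjusted p = 0.0264) in late passage, with a list median of -0.07. Among 25 growth factors and receptors (median 0.03), FGF7 (log2 fold change 0.29, SE 0.0706, adjusted p = 0.0316), VEGFC (log2 fold change 0.27, SE 0.0626, adjusted p = 0.0257) and EREG were called higher in irradiated cells and CCN2 (log2 fold change -0.29, SE 0.0513, adjusted p = 0.00705), PDGFRB (log2 fold change -0.55, SE 0.0548, adjusted p = 4.62e-04) and ANGPT1 in late passage. TGF-beta and BMP calls higher in irradiated and in late-passage cells numbered 0 and 1, 0 and 1, 8 and 6, and 4 and 13 with 1 library left out. Their median was 0.02 without late replicate 1 and -0.12 without late replicate 2. Growth factor calls higher in irradiated and in late-passage cells numbered 1 and 2, 1 and 2, 5 and 10, and 9 and 3 with 1 library left out, and the median was -0.03 without late replicate 1. EREG, an EGF-family ligand, measured 15.3 and 16.6 CPM in irradiated and 8.61 and 10.1 CPM in late-passage cells (log2 fold change 0.77, SE 0.0884, adjusted p = 9.15e-04), and ANGPT1, which stabilises vessels, 78.2 and 81.7 CPM and 106 and 116 CPM (log2 fold change -0.47, SE 0.0581, adjusted p = 0.00129). With irradiated replicate 1 or 2 left out, the adjusted p-values became 0.255 and 0.264 for TGIF1, 0.0823 and 0.174 for TGFBR2, 0.0619 and 0.0885 for LTBP1, 0.16 and 0.0643 for INHBB, 0.0986 and 0.23 for FGF7, 0.149 and 0.191 for VEGFC and 0.0511 and 0.161 for CCN2. The log2 fold change of TGFB2 was -0.34 without late replicate 2, and that of FGF7 0.18 without late replicate 1.

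Of 12 cathepsins (median 0.06), CTSK and CTSL (log2 fold change 0.25, SE 0.0478, adjusted p = 0.0101) were called higher in irradiated cells and CTSC (log2 fold change -0.38, SE 0.0802, adjusted p = 0.0173) in late passage. Over all genes the shares were 4.97% and 5.63%. GLB1, the enzyme behind senescence-associated beta-galactosidase staining, measured 47.5 and 46.6 CPM and 49.2 and 53.4 CPM and was not called (log2 fold change -0.12, SE 0.0563, adjusted p = 0.213). Its log2 fold change was -0.18 without late replicate 1 and -0.06 without late replicate 2. NPC1, the cholesterol exporter of the lysosome, measured 65.3 and 60.7 CPM in irradiated and 42.2 and 34.6 CPM in late-passage cells (log2 fold change 0.72, SE 0.0854, adjusted p = 0.00111), and with the proton pump subunit ATP6V0D2 (log2 fold change 2.13, SE 0.511, adjusted p = 0.0286) and, higher in late passage, the saposin precursor PSAP (log2 fold change -0.24, SE 0.0572, adjusted p = 0.0264) it made up the calls among 25 other lysosomal genes (median 0.00), a share near the 10.6% of all genes. Cathepsin calls higher in irradiated and in late-passage cells numbered 1 and 0, 1 and 0, 3 and 3, and 5 and 1 with 1 library left out. Other lysosomal calls higher in irradiated and in late-passage cells numbered 1 and 0, 1 and 0, 3 and 5, and 7 and 1 with 1 library left out. Of 22 genes of cholesterol synthesis, 10 were called higher in late-passage cells, all by small amounts (median -0.16), and 0 were called higher in irradiated cells by edgeR (2 at an unadjusted p below 0.05 and 0 by DESeq2). HMGCS1, an early synthase, measured 39.2 and 39.5 CPM and 49.3 and 47.1 CPM (log2 fold change -0.29, SE 0.052, adjusted p = 0.00742). Cholesterol calls higher in irradiated and in late-passage cells numbered 0 and 0, 0 and 1, 1 and 14, and 0 and 13 with 1 library left out. ABCG1 (log2 fold change 1.67, SE 0.292, adjusted p = 0.00699), an exporter of cholesterol, was higher in irradiated cells as APOE was, while ABCA1, another exporter, was higher in late passage (log2 fold change -0.28, SE 0.0492, adjusted p = 0.00752). Calls lost without irradiated replicate 1 or 2 had adjusted p-values of 0.136 and 0.131 for CTSL, 0.0805 and 0.102 for CTSC, 0.0742 and 0.265 for ATP6V0D2, 0.219 and 0.203 for PSAP, 0.098 and 0.10 for HMGCS1 and 0.0782 and 0.145 for ABCA1. The log2 fold change of CTSC was -0.23 without late replicate 2.

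Among stress responses, 6 of 19 targets of the antioxidant factor NRF2 were called higher in irradiated cells, against 4.97% of all genes. Their median was 0.01, and 0 were called higher in late-passage cells by edgeR (2 at an unadjusted p below 0.05 and 0 by DESeq2). Genes of iron handling were among them. FTL, ferritin light chain, measured 913 and 917 CPM and 674 and 694 CPM (log2 fold change 0.42, SE 0.0487, adjusted p = 9.45e-04), and the haem oxygenase HMOX1 14.5 and 15 CPM and 10.1 and 7.53 CPM (log2 fold change 0.74, SE 0.117, adjusted p = 0.00423). NRF2 target calls higher in irradiated and in late-passage cells numbered 2 and 0, 3 and 0, 7 and 2, and 5 and 2 with 1 library left out. ATF3, a stress-induced factor, measured 6.69 and 7.09 CPM and 4.24 and 3.82 CPM (log2 fold change 0.77, SE 0.0987, adjusted p = 0.00151), with DDIT3 in the same direction (log2 fold change 0.46, SE 0.0685, adjusted p = 0.00352), in a list of 20 genes of the unfolded protein response (median -0.10), while the amino acid transporter SLC7A5 (log2 fold change -0.50, SE 0.0774, adjusted p = 0.00412) and the chaperone HSPA5 (log2 fold change -0.23, SE 0.052, adjusted p = 0.022) were higher in late passage. Of 20 genes of glycolysis and hypoxia (median -0.01), 4 were called higher in late-passage cells, against 5.63% of all genes. They were the glucose transporter SLC2A1 (log2 fold change -0.37, SE 0.0529, adjusted p = 0.00289), NDRG1 (log2 fold change -0.49, SE 0.0641, adjusted p = 0.00173), PFKFB3 (log2 fold change -0.28, SE 0.0656, adjusted p = 0.0275) and PDK1 (log2 fold change -0.45, SE 0.063, adjusted p = 0.00241). In irradiated cells 0 of the 20 were called higher by edgeR (2 at an unadjusted p below 0.05 and 0 by DESeq2). Glycolysis and hypoxia calls higher in irradiated and in late-passage cells numbered 0 and 3, 0 and 3, 1 and 7, and 5 and 5 with 1 library left out. The glycolysis median was -0.03 without late replicate 1 and 0.02 without late replicate 2. Unfolded protein response calls higher in irradiated and in late-passage cells numbered 2 and 1, 2 and 1, 4 and 8, and 5 and 4 with 1 library left out. Leaving out irradiated replicate 1 or 2, in that order, gave adjusted p-values of 0.108 and 0.331 for HSPA5 and 0.127 and 0.231 for PFKFB3.

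**Figure D4:**
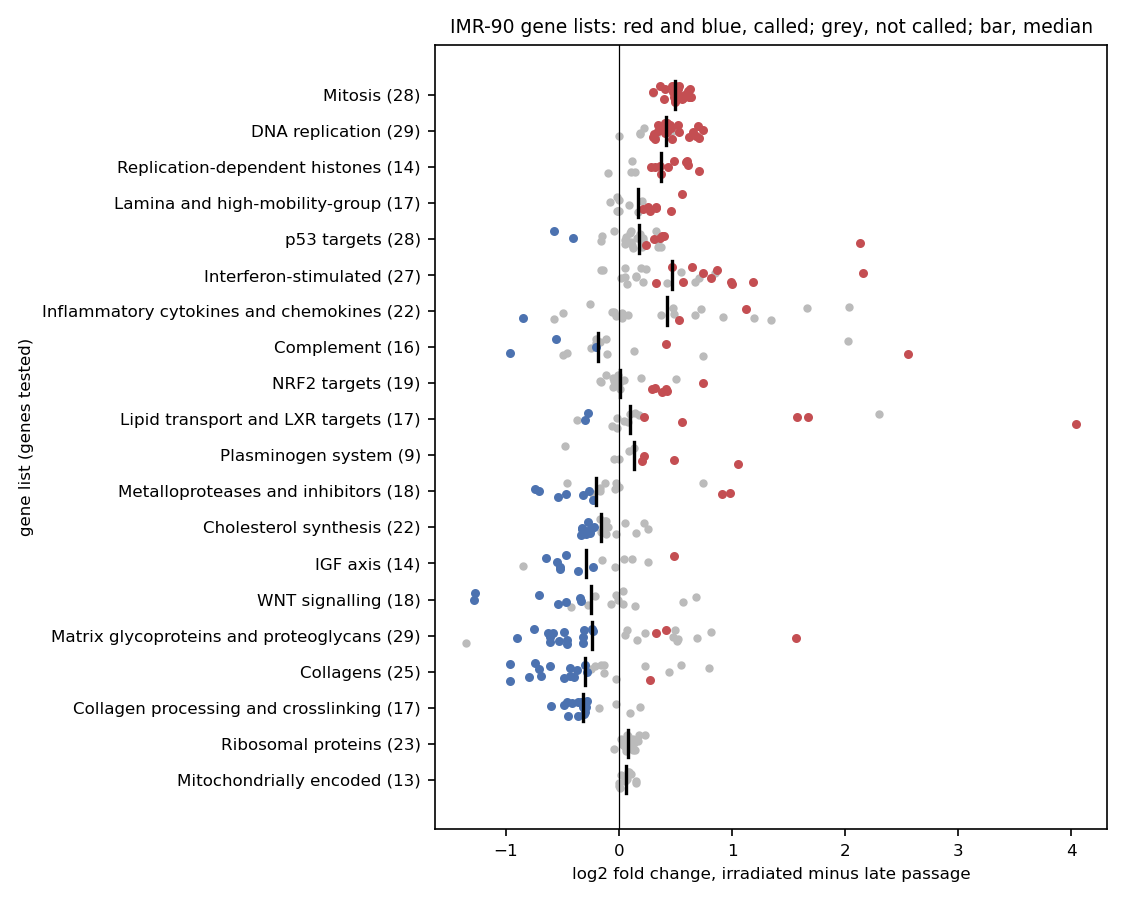
Log2 fold change, irradiated minus late passage (x axis), of every gene tested in 20 gene lists (y axis, with the number of genes tested); red and blue points are called higher in irradiated and in late-passage cells, grey points are not called and bars are medians. Mitosis genes lie right of 0 (median 0.50), collagen genes mostly left of it (median -0.30), and ribosomal and mitochondrial genes close to it.

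Markers of cell identity were checked in the same way. Of 15 fibroblast markers, 9 were called higher in late-passage cells (median -0.37), collagens and DCN among them, and 1, PDPN, higher in irradiated cells, at 0.703 and 0.694 CPM against 0.193 and 0.127 CPM (log2 fold change 2.11, SE 0.322, adjusted p = 0.00372). VIM, vimentin, measured 1668 and 1697 CPM in irradiated and 1664 and 1709 CPM in late-passage cells, with a 95% interval of -0.11 to 0.11 for the log2 fold change, and the surface marker THY1 218 and 229.7 CPM and 312 and 321 CPM (log2 fold change -0.50, SE 0.0522, adjusted p = 5.79e-04). The summed CPM of the fibroblast markers was 6218 to 6306 in irradiated and 8126 to 8603 in late-passage libraries. The 12 leukocyte markers summed to 14.7 to 15.4 CPM in irradiated and 11.8 to 12.9 CPM in late-passage libraries, nearly all of it CD68, a lysosomal protein that fibroblasts also make, and the defining PTPRC was near 0, at 0.203 and 0.0999 CPM and 0.153 and 0.0892 CPM. The 12 epithelial markers summed to 70.5 to 75 CPM in irradiated and 61.4 to 74.5 CPM in late-passage libraries. Of these, EPCAM (0.574 and 0.441 CPM and 0.295 and 0.42 CPM) and CDH1 (0.0792 and 0.106 CPM and 0.102 and 0.0764 CPM) were near 0, and the keratins KRT19 (log2 fold change 1.10, SE 0.126, adjusted p = 9.13e-04) and KRT7 (log2 fold change 1.34, SE 0.151, adjusted p = 8.31e-04) were called higher in irradiated cells. Of 13 endothelial markers (median 0.36, with 11 above 0), CDH5 (log2 fold change 0.64, SE 0.153, adjusted p = 0.0278) and KDR (log2 fold change 0.86, SE 0.236, adjusted p = 0.0469) were higher in irradiated and FLT1 (log2 fold change -1.01, SE 0.107, adjusted p = 6.29e-04) higher in late-passage cells, and their sum was 99.5 to 100.6 CPM in irradiated and 84.6 to 118.2 CPM in late-passage libraries. CD68 was the leukocyte marker called (log2 fold change 0.33, SE 0.0714, adjusted p = 0.0193). Fibroblast marker calls higher in irradiated and in late-passage cells numbered 1 and 6, 1 and 7, 1 and 13, and 2 and 9 with 1 library left out. Endothelial calls higher in irradiated and in late-passage cells numbered 0 and 1, 0 and 1, 2 and 2, and 4 and 1 with 1 library left out. At an unadjusted p below 0.05, 6 endothelial markers were higher in irradiated and 2 in late-passage cells. With irradiated replicate 1 or 2 left out, the adjusted p-values became 0.0815 and 0.193 for CD68, 0.109 and 0.186 for CDH5 and 0.077 and 0.297 for KDR, and KDR was not called without late replicate 1 either (adjusted p = 0.0632). The part of other cells in the results was not tested. In bulk RNA, fewer cells of a kind and less RNA per cell cannot be told apart.

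The 2 muscle lists, which share DES and MYOCD, leaned to late passage in their medians, and the lung list was mixed. Of 18 contractile genes (median -0.17, with 3 above 0), 1 was called higher in irradiated and 4 higher in late-passage cells. Of 7 smooth muscle markers (median -0.29, with 1 above 0), 1 was called higher in irradiated and 3 higher in late-passage cells. The shares over all genes were 4.97% and 5.63%, and DES was the 1 called higher in irradiated cells in both lists. The intermediate filament gene DES, desmin, was low but 7.31-fold higher in irradiated cells, at 2.08 and 2.0 CPM against 0.385 and 0.166 CPM (log2 fold change 2.87, SE 0.306, adjusted p = 6.42e-04). MYOCD, the coactivator of smooth muscle genes, went the other way, at 3.75 and 3.42 CPM against 8.66 and 8.22 CPM (log2 fold change -1.23, SE 0.0944, adjusted p = 9.72e-05), and stood at 112 and 98.2 CPM in early passage. TPM1, a tropomyosin of stress fibres, was also higher in late passage (log2 fold change -0.30, SE 0.0487, adjusted p = 0.00503). TCF21, a factor of lung mesenchyme, measured 32.2 and 30.7 CPM in irradiated, 19.4 and 19.4 CPM in late-passage and 51.4 and 49.7 CPM in early-passage cells (log2 fold change 0.70, SE 0.0572, adjusted p = 1.45e-04). TBX4, a factor of lung fibroblasts, was called too but was low in all 4 libraries, at 0.272 and 0.282 CPM and 0.068 and 0.0573 CPM (log2 fold change 2.13, SE 0.488, adjusted p = 0.0235), against 1.85 and 1.78 CPM in early passage. HOXA5 (log2 fold change 0.47, SE 0.0992, adjusted p = 0.0155) and, in the other direction, FOXF2 (log2 fold change -0.32, SE 0.0803, adjusted p = 0.0356) completed the calls among 25 lung mesenchyme and homeobox factors (median -0.12). Their calls higher in irradiated and in late-passage cells numbered 1 and 0, 1 and 0, 4 and 5, and 3 and 5 with 1 library left out, and their median was 0.03 without late replicate 1. Calls lost without irradiated replicate 1 or 2 had adjusted p-values of 0.0876 and 0.0984 for TPM1, 0.134 and 0.159 for TBX4, 0.0732 and 0.0882 for HOXA5 and 0.181 and 0.218 for FOXF2, and FOXF2 was not called without late replicate 2 either (adjusted p = 0.0647).

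By edgeR, 0 of 23 ribosomal protein genes and 0 of 13 mitochondrially encoded genes were called, with medians of 0.08 and 0.06. At an unadjusted p below 0.05, 6 and 2 were higher in irradiated and 0 and 0 in late-passage cells, and DESeq2 called 2 and 0, higher in irradiated cells. Ribosomal protein calls higher in irradiated and in late-passage cells numbered 0 and 0, 0 and 0, 17 and 0, and 3 and 0 with 1 library left out. Mitochondrial calls higher in irradiated and in late-passage cells numbered 0 and 0, 0 and 0, 0 and 0, and 2 and 0 with 1 library left out. Of 12 genes of telomere protection and telomerase, 1 was called, a share near the 10.6% of all genes. It was TERC, the RNA template of telomerase. TERC stood at 33 and 35.4 CPM in irradiated, 22.3 and 22.9 CPM in late-passage and 34.7 and 40.5 CPM in early-passage cells (log2 fold change 0.60, SE 0.0592, adjusted p = 4.62e-04). Its count is uncertain because 79.8% of its exon sequence is shared with other annotated genes. The shelterin proteins TERF1 (log2 fold change -0.03, SE 0.0868, adjusted p = 0.894) and TERF2 (log2 fold change 0.08, SE 0.0729, adjusted p = 0.554) were not called.

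The same pair of states in WI-38 gave another picture. In WI-38, 28144 genes were tested and 983 (3.49%) called, 544 (1.93%) higher in irradiated and 439 (1.56%) higher in late-passage cells. WI-38 replicates varied more, with a biological coefficient of variation of 41.6% against 8.53% in IMR-90, and 5.78% to 14% of their counts were mitochondrial against 0.165% to 0.234%. Strain and library set cannot be told apart. Of 2863 genes called in IMR-90 and tested in WI-38, 198 were called in the same direction in WI-38 (6.92%, and 21.2% of the 936 WI-38 calls tested in IMR-90), and 100 in the opposite direction (3.49% and 10.7%). In a test of the difference itself over 31930 genes, 1037 (3.25%) were called, 435 (1.36%) with a higher and 602 (1.89%) with a lower log2 fold change in IMR-90 than in WI-38. These counts rest on single libraries. Without WI-38 late replicate 1 the WI-38 calls numbered 434 and 326, and without WI-38 irradiated replicate 1 they numbered 2266 and 3527. The calls of the difference numbered 54 and 102 without IMR-90 irradiated replicate 2, and 3335 and 2094 without WI-38 irradiated replicate 1.

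Genes higher in irradiated cells of both strains included POSTN and GDF15. POSTN measured 177 and 89.1 CPM in irradiated and 17.5 and 12.9 CPM in late-passage WI-38 (log2 fold change 3.13, SE 0.377, adjusted p = 0.00924), and GDF15 36.7 and 47.9 CPM and 13.1 and 17.7 CPM (log2 fold change 1.46, SE 0.273, adjusted p = 0.0364). APOE had a WI-38 value of 0.66 (SE 0.359, adjusted p = 0.322), and its difference between strains was not called (adjusted p = 0.265). CTSK did differ: its WI-38 value was 0.15 (SE 0.223), and the difference of 1.47 was called (adjusted p = 0.0219). SLC14A1 and ITGBL1 were higher in late passage of both strains, with WI-38 values of -2.51 (adjusted p = 0.0126) and -1.77 (adjusted p = 0.00924).

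COL1A1, COL1A2, COL11A1 and MMP1 were called in opposite directions in the strains. In WI-38, 4 of 25 collagen genes were called (COL1A1, COL1A2, COL6A1 and COL11A1), all higher in irradiated cells against 1.93% of all genes, with a median of 0.67, and the difference between strains was called for 8 of 25, all lower in IMR-90, against 1.89% of all genes. COL1A1 measured 847 and 1201 CPM in irradiated and 233 and 234 CPM in late-passage WI-38, and the difference between strains was -3.16 (SE 0.266, adjusted p = 0.00107). MMP1 measured 128 and 112 CPM and 956 and 872 CPM there, a difference between strains of 3.86 (SE 0.202, adjusted p = 8.00e-05). The groups of WI-38 did not overlap in either gene, and their order was the reverse of that in IMR-90. DSG2, SLC16A6 and TMEM176B, among the genes highest in irradiated IMR-90, had WI-38 values of -3.82, -2.67 and -2.81, each called (adjusted p = 0.0025, 0.00708 and 0.0278). CORIN, among those highest in late-passage IMR-90, had a value of 3.50 (adjusted p = 0.00304). Inflammatory genes, mostly uncalled in IMR-90, were called higher in irradiated WI-38 for 12 of 27, against 1.93% of all genes. In late-passage WI-38 1 was called higher. The difference between strains was called for 8 of 27, all lower in IMR-90, against 1.89% of all genes. Of the 27, only 22 were tested in IMR-90, and 16 lay below 1 CPM in all 4 libraries there. Mitosis genes had a WI-38 median of 0.77 with AURKA and UBE2C called higher in irradiated cells, and the difference between strains was called for UBE2C (-1.89, SE 0.313, adjusted p = 0.0171). On simulated counts the test of the difference recovered 29.9% of 4-fold changes, so smaller differences between strains were mostly not detectable.

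**Figure D5:**
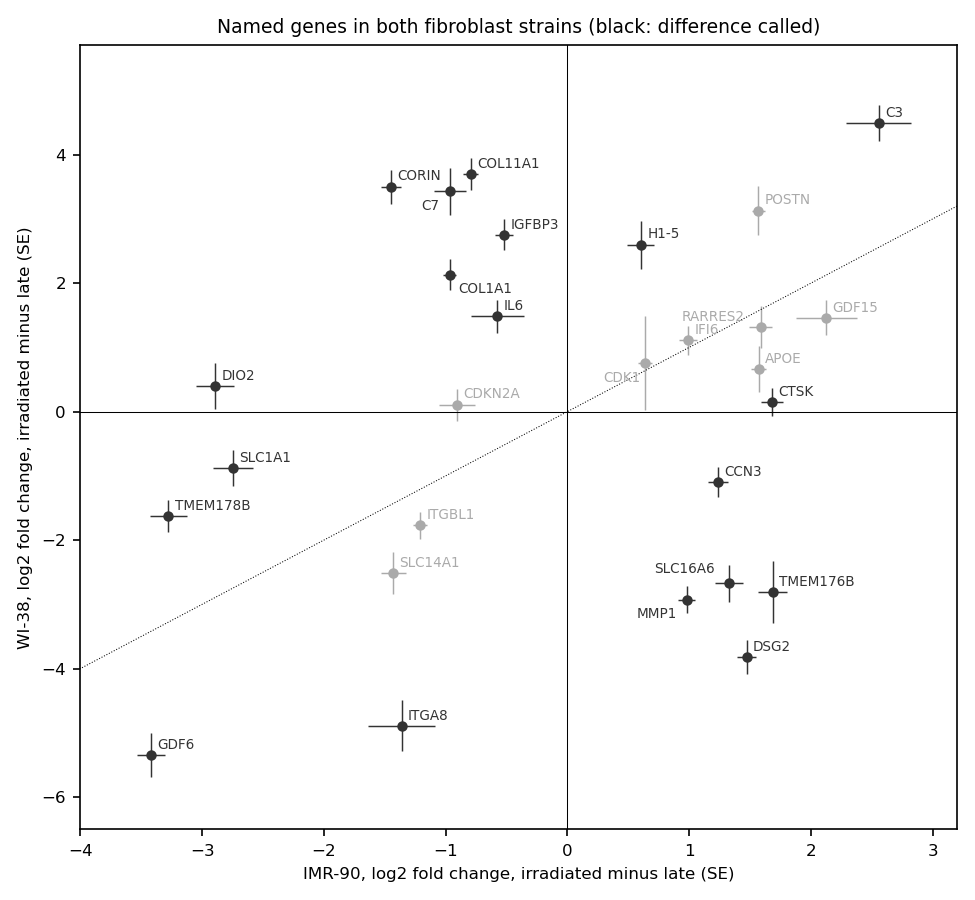
Log2 fold change, irradiated minus late passage, in IMR-90 (x axis) and in WI-38 (y axis) for genes named in the text; bars are standard errors, black marks genes whose difference between strains was called, and the dotted line marks equal values. COL1A1 (-0.97 and 2.13) and MMP1 (0.98 and -2.93) lie in the quadrants of opposite direction, POSTN (1.57 and 3.13) in that of the same direction.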

How the data were processed

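Total RNA of cultured fibroblasts was depleted of ribosomal RNA and sequenced (Ovation RNA-seq System V2, TruSeq ChIP kit), per the labels' protocols. The authors deposited raw read counts per gene and library, with featureCounts, STAR 2.4, cutadapt, bcl2fastq and hg19 named in the submitters' processing notes. The sources used here name neither the annotation release nor the use of strand. Of 57773 identifiers, 52338 were given a symbol.

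Libraries were grouped by their labels. Counts were filtered with filterByExpr, scaled by TMM and tested with edgeR 4.0.16 in R 4.3.3 (quasi-likelihood, Benjamini-Hochberg adjusted p below 0.05), on 2 irradiated and 2 late-passage IMR-90 libraries. Early-passage levels were scaled against the same reference library. WI-38 was fitted alike, and the difference of both comparisons in 1 fit of 8 libraries. A standard error is the size of the log2 fold change over the square root of F. The members and the 38 gene lists were chosen with earlier results of these data known. Genes were named by rule: the markers POSTN, APOE, CTSK and GDF15 and 12 senescence markers; 10 called protein-coding genes per direction, ranked by fold change, whose log2 CPM averaged 3 or more; up to 4 called genes per list and direction, and every member of lists of at most 16; the 5 most abundant 2-fold genes per direction; and 5 per side for the difference between strains. Not every gene that met the rule is described, and some results are not reported here.

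On simulated counts the IMR-90 test recovered 60.8% of genes changed 2-fold and 85.4% of those changed 4-fold, none in the wrong direction, and 14.5% of its 165 calls were unchanged genes; for WI-38 56.2% and for the difference 29.9% of 4-fold changes were recovered. Totals of 153904822 to 202974994 counts limit counting error, and the 2 libraries per group limit precision. Replicates differed by more than counting noise (chi-square per degree of freedom 17.4 irradiated, 33.7 late passage). Exon sequence was compared in stretches of 31 bases (GENCODE 29): of the 161 genes named, 4 shared at least 50% with other genes (CD68, IGF2, ITGBL1, TERC), 56 overlapped exons of a gene on the other strand and 19 of one on the same strand, so their counts are uncertain. Promoters were 250 bases before RefSeq starts (GRCh38.p14). Alternatives were DESeq2 size factors, TMM from protein-coding genes, no filter, DESeq2 1.42.0, the replicate number as a block, each library left out, and a fit of all libraries of the set.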

Additional observations from a re-analysis of the deposited data

Results flagged for a closer look

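For 53 of the 161 genes named here, the test of the difference itself passed the threshold, against 1037 (3.25%) of all 31930 genes tested. That difference is the log2 fold change in IMR-90 minus that in WI-38, in 1 edgeR fit of 8 libraries. The named genes were chosen largely by their IMR-90 values and in part by this same test, so the choice itself bears on their count. Of the 53, 15 had a higher value in IMR-90 and 38 a lower one. Strain and library set cannot be told apart in these differences, and how many are called depends on the libraries used.

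Among the genes higher in irradiated IMR-90, the difference from WI-38 was 5.24 for DSG2, 4.45 for TMEM176B, 3.95 for SLC16A6, 2.28 for CCN3 and 1.47 for CTSK. It was 3.86 for MMP1, 3.15 for MMP3, 3.11 for EREG, 1.61 for STC1 and 1.34 for TNC, and 2.32 for NPC1 and 3.75 for ATP6V0D2. For these genes other than CTSK the WI-38 value was below 0. For C3 (-1.99), H1-5 (-2.04), SERPINF1 (-2.31), TBX4 (-2.44) and UBE2C (-1.89) both strains had values above 0, and that of WI-38 was larger.

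Among the genes higher in late-passage IMR-90, matrix genes had differences of -4.54 for COL11A1, -3.16 for COL1A1, -2.03 for COL1A2, -1.50 for COL5A1, -1.96 for DCN and -1.36 for FBN2, with a WI-38 value above 0 in each. So had the collagen enzymes LOXL4 (-1.81), P4HA1 (-1.35) and PLOD1 (-1.12) and the proteases ADAM19 (-1.73) and ADAMTS2 (-1.52). COL6A1, not called in IMR-90, had -1.72. Secreted and signalling genes followed with -3.33 for IGFBP3, -2.38 for IGFBP4, -3.63 for INHBB, -1.40 for PDGFRB, -4.44 for C7 and -2.21 for CCL2, and IL6, not called in IMR-90, with -2.12. Of the 10 genes highest in late-passage IMR-90, CORIN had a difference of -5.00, DIO2 -3.33, SLC1A1 -1.91, VCAM1 -1.91, TMEM178B -1.71, SFRP1 -1.59, MASP1 -1.49 and SCUBE3 -1.23. Differences of -1.90 for DSP, -1.50 for MEST, -2.21 for MYOCD, -2.08 for SLC7A5, -1.03 for HSPA5 and -1.03 for TPM1 were called as well. ITGA8 (3.49), PURPL (2.08) and GDF6 (1.88) were higher in late passage of both strains in their values, and further so in WI-38.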

How the results depend on the processing

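With 2 libraries per group the calls depend on single libraries. No alternative reversed a call among the 161 genes named here. Of the genes not called, CCND1, CDH1, COL6A1, PTPRC, TERF1 and VIM had values of either sign with 1 library left out. With no filter on low counts, IMR-90 had 2069 genes called higher in irradiated cells, 431 of them at least 2-fold. Leaving out 1 library in turn gave 453 to 2737 genes higher in irradiated and 517 to 2949 higher in late-passage IMR-90, and 144 to 571 and 120 to 282 at least 2-fold. When a late-passage library was left out, the spread came from the irradiated pair alone, and the lone library was assumed to vary alike. Of the named genes, 41 lost their call without irradiated replicate 1 and 43 without irradiated replicate 2, against 3 with DESeq2, among 156 to which it gave an adjusted p.

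In WI-38, the calls higher in irradiated and late-passage cells numbered 1765 and 2135 with no filter, 1819 and 2075 with DESeq2, 2263 and 2654 with 12 libraries in 1 fit, and 434 to 2266 and 326 to 3527 with 1 library left out. For the difference between strains, calls higher and lower in IMR-90 numbered 1959 and 1650 with no filter, 1452 and 1683 with DESeq2, and 54 to 3335 and 102 to 2094 with 1 library left out. The cause was not tested.

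With the replicate number as a block, the calls higher in irradiated and late-passage cells were 1553 and 1732 in IMR-90 and 2684 and 3050 in WI-38, and those of the difference 2115 and 2344. Deviations of libraries with the same number correlated at 0.00615 in IMR-90 and 0.452 in WI-38 over 2 pairs. With 2 pairs and no label that ties the numbers to a shared source, the pairing could not be settled. Simulated 2-fold differences were recovered in 60.8% of genes in IMR-90, so uncalled genes may differ.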
